A study of Mus musculus with 8 samples.

Results

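Mitosis genes encode the proteins that carry a cell from G2, after its DNA has been copied, through the separation of its chromosomes and the division of its body. Here 36 such genes, chosen by symbol and present in the feature tables among 22056 listed genes, were followed in tumour cells grown at 3 sites and in the dividing host cells beside them. The tumour cells came from N2N1G, a mouse small-cell lung cancer line kept in culture and injected into mice at 1000000 cells per allograft. There were 2 brain allografts and 3 subcutaneous allografts of the flank made by direct injection, and 3 liver allografts made through the tail vein, so that site and route of injection cannot be told apart in the comparisons with liver. All 8 tumours were taken 3 weeks after transplantation, sorted for healthy cells and read as single cells by 10x Genomics sequencing of the 3′ ends of messenger RNA. Every group carried the same line, the labels name no treatment, and they do not give the strain, age or number of the host mice. The labels name separate allografts but do not say that each came from its own animal, so that p-values measure the spread between these libraries.

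Division is driven by cyclin A and cyclin B bound to the kinase Cdk1, which build up in G2 and switch on the mitotic kinases of the Polo and Aurora families. Kinetochores tie chromosomes to the spindle, and checkpoint proteins hold the anaphase-promoting complex back until each chromosome is attached. The complex then acts with its activator Cdc20 to mark cyclin B for destruction, and Fbxo5 (also called Emi1) keeps it inactive in S phase and G2. Small-cell lung cancer is known for losing Rb and for a very high rate of division, and many mitosis genes carry a CHR element, through which the DREAM complex keeps them silent outside the cycle, and CCAAT boxes, through which NF-Y activates them.

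Promoter sequences were looked up because genes of this kind are known to be switched together in the cycle, and 6 are shown, for the 3 genes that changed between sites (Cdc20, Fbxo5 and Top2a) and for 3 that did not pass the test (Cdk1, Ube2c and Kif11). Each line holds 130 bases before and 20 bases after the RefSeq start of the gene, read 5′ to 3′ along its own strand in GRCm38.p6, and the capitals mark a CHR element (TTTGAA or TTCGAA) or a CCAAT box on either strand.
Cdc20: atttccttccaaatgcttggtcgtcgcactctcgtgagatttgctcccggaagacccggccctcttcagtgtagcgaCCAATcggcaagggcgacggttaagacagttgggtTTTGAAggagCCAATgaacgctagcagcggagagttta
Fbxo5: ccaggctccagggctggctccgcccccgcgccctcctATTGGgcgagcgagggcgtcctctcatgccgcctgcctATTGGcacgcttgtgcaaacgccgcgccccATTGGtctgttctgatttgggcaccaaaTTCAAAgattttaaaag
Top2a: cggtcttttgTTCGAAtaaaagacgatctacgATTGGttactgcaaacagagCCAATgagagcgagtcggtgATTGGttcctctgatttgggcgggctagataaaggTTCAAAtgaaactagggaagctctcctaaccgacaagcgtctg
Cdk1: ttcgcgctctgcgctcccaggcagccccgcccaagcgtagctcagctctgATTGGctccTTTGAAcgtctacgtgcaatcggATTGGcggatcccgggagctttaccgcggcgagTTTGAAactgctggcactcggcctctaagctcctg
Ube2c: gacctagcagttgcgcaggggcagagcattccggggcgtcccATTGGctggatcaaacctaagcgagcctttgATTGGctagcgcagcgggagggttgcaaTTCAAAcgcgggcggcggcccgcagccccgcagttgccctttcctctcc
Kif11: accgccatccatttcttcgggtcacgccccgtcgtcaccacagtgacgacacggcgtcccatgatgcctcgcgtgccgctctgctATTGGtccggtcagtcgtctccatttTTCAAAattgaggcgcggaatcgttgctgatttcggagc
The shown stretches lie at chr4:118437324-118437473 (Cdc20), chr10:5805446-5805595 (Fbxo5), chr11:99024170-99024319 (Top2a), chr10:69352893-69353042 (Cdk1), chr2:164769799-164769948 (Ube2c) and chr19:37376252-37376401 (Kif11), on the minus strand for the first 4 and the plus strand for Ube2c and Kif11. All 6 held a CHR element near the start, and all 6 held a CCAAT box upstream of it. The nearest CHR element began 18 bases before the start in Cdc20 and 23 bases before it in Top2a, and in Fbxo5 it began 3 bases after the first base of the transcript.

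Promoters were found for 31 of the 36 genes in the RefSeq table. Over the full window of 250 bases before and 50 bases after the start, a CHR element was present in 24 of the 31 promoters (77.4%), against 19.2% of all 32851 promoters. Within 50 bases on either side of the start, 21 of 31 (67.7%) held one, against 5.31% of all promoters. A CCAAT box was present in 23 of 31 (74.2%), against 37.4%, and within 50 bases of the start in 16 of 31 (51.6%), against 13.6%. These are matches of letters and not bound sites, and 1 of the 33 CHR matches overlapped a CCAAT match. Cdc20, which was called between sites, and Ube2c, which was not, both held the pair of elements.

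Tumour cells were taken as cells in which eGFP and Mycl together made up at least 0.2% of the unique molecular identifiers (UMIs), each of which stands for 1 captured RNA molecule. Of 38460 barcodes, 36797 passed the filters of at least 500 genes and at most 10% mitochondrial UMIs, and 34719 of these were tumour cells, with 2418 to 6276 of them and 21678868 to 62017465 of their UMIs in a library. Cells just at the cut were few, since 1.39% of kept cells lay between 0.15% and 0.25%. Any pair of libraries shared 20 to 56 barcodes. Brain replicate 1 stood apart, with tumour cells at 71.6% of kept cells against 92.0% to 98.9% in the other libraries. Its tumour-cell sum held 566 CPM (UMIs per 1000000 UMIs of the sum) of the 12 macrophage or microglia markers, against 87.9 in brain replicate 2 and 2.45 to 47.4 elsewhere, and 266 of the 8 glia markers, against 182 in brain replicate 2 and 41.9 to 52.6 elsewhere. Neuroendocrine markers of small-cell lung cancer were present in every library, for example Chga (384 to 669.5 CPM) and Uchl1, while Syp was low (14.0 to 20.9). The cells had been chosen by eGFP (1606 to 3505) and Mycl (4028 to 7842), whose presence was therefore set by the rule.

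All 36 genes were detected in the tumour cells of every library, with at least 261 UMIs for the scarcest gene of the shallowest library, and together they made up 0.261% to 0.359% of tumour-cell UMIs. All 36 passed the filter on low counts, so that the whole set was tested. Levels are given as CPM in the summed tumour cells of a library. These count 3′ ends and are not scaled to gene length, and therefore the order of different genes by level is not read as a result. The highest mean level in each role group was used only to choose which values are given. In bulk sums of this kind, fewer dividing cells and less RNA per dividing cell cannot be told apart. The cells were also split by state further on, with the limit given there.

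**Figure D1:**
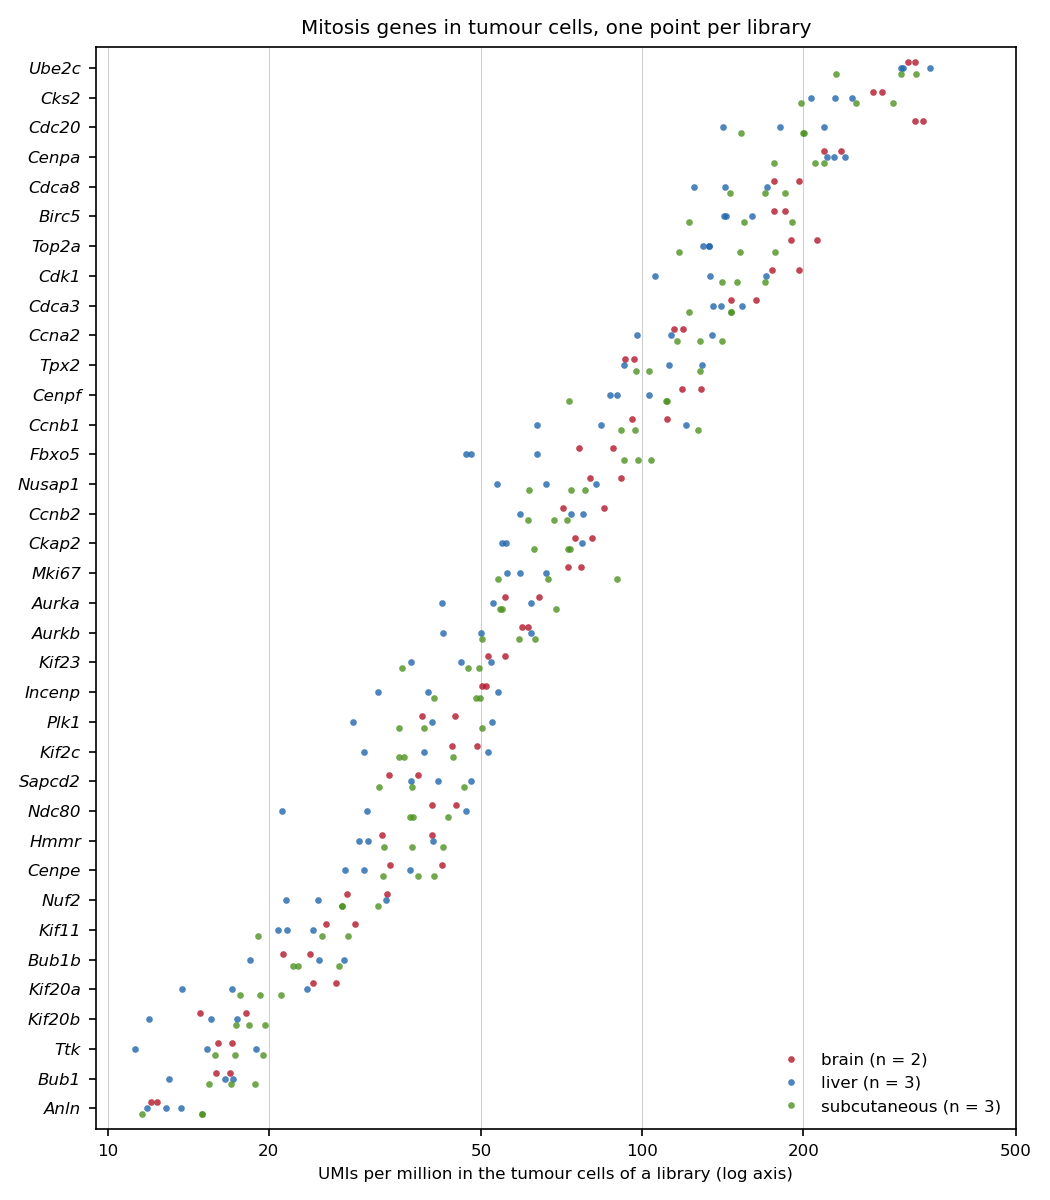
Level of each of the 36 mitosis genes in the summed tumour cells of each library, as CPM on a log axis, with 2 brain, 3 liver and 3 subcutaneous libraries. For most genes the colours overlap, whereas both brain points lie to the right of all others for Cdc20 (323 and 334) and the liver points lie to the left for Fbxo5 (46.8 to 63.6).

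Between sites, 3 of the 36 genes changed and the other 33 did not pass the test in any comparison. Cdc20 was 1.69-fold higher in brain than in liver and 1.78-fold higher than in subcutaneous tumours. Fbxo5 was higher in brain than in liver by 1.44-fold and in liver was 0.581 times its subcutaneous level. Top2a was 1.41-fold higher in brain than in liver. These calls came from edgeR's quasi-likelihood test on the 8 summed libraries, with Benjamini-Hochberg adjustment over 13931 genes and an adjusted p under 0.05. In brain against liver 3 of 36 members were called (8.33%), all higher in brain, where 21.8% of all tested genes were called and 13.2% were called higher. In brain against subcutaneous tumours 1 of 36 was called (2.78%), higher in brain, where 15.1% of all genes were called and 8.94% higher. In liver against subcutaneous tumours 1 of 36 was called, lower in liver, where 2.83% of all genes were called and 1.90% lower. In both brain comparisons the members' share lay below that of all genes. Brain and liver libraries did not overlap, with brain higher, for 11 members, where 36.1% of all genes did so, and brain and subcutaneous libraries for 10, where 24.5% did so. Brain was lower with no overlap for 0 members against liver (17.1% of all genes) and 2 against subcutaneous tumours (22.3%).

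The members' fold changes were mostly small, and in both brain comparisons their median lay a little above that of all genes. The median log2 difference over the 36 genes was 0.11 for brain minus liver, 0.12 for brain minus subcutaneous and -0.01 for liver minus subcutaneous, while the median of all genes was 0.00, -0.00 and -0.01. The standard errors of the members ranged from 0.10 to 0.25 in the brain comparisons. The 2 brain comparisons share the brain libraries and all 3 share the estimate of the spread. On simulated counts the same procedure recovered 92% of genes changed 2-fold and 29% of genes changed 1.5-fold between brain and liver. The simulated spread was set below that of these libraries. In the simulation 125 of 13690 genes were called, against 3032 of 13931 here. These shares therefore do not give what the real comparison can call.

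**Figure D2:**
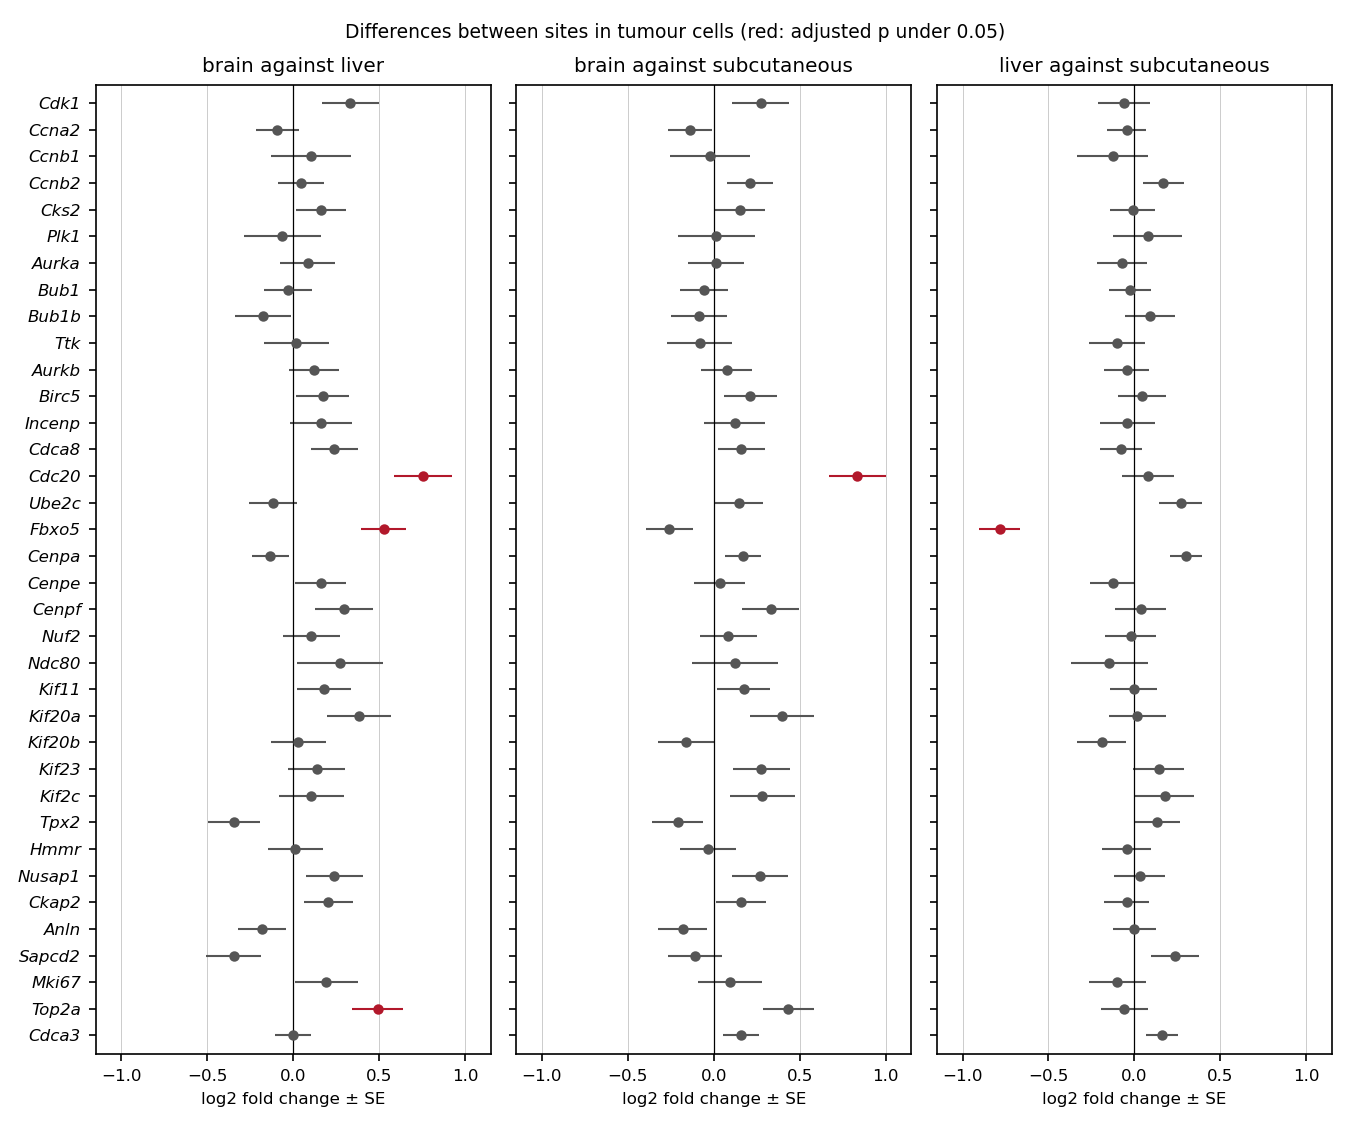
Log2 fold change with its standard error for the 36 mitosis genes in each comparison, ordered by role, from edgeR's fit of 2 brain, 3 liver and 3 subcutaneous libraries. Red points have an adjusted p under 0.05 and are Cdc20, Fbxo5 and Top2a in brain against liver, Cdc20 in brain against subcutaneous and Fbxo5 in liver against subcutaneous.

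The cofactors of the anaphase-promoting complex held 2 of the 3 genes that changed. Cdc20 (ENSMUSG00000006398, chr4:118432901-118437352, minus strand, GRCm38), the activator that turns the complex on at the end of metaphase, stood at 323 and 334 CPM in the brain libraries. Liver gave 141, 181 and 219, and the subcutaneous libraries gave 200.5, 153 and 200.03. Both brain libraries lay above all 6 others, and liver and subcutaneous libraries overlapped. The brain mean was 329 ± 7.76 (SD, n = 2). Liver averaged 180.4 ± 38.8 (SD, n = 3) and the flank tumours averaged 184 ± 27.4 (SD, n = 3). The log2 difference was 0.76 (SE 0.17, edgeR adjusted p = 0.0136) from liver and 0.83 (SE 0.17, edgeR adjusted p = 0.0145) from subcutaneous tumours. Liver and subcutaneous levels differed by 0.08 (SE 0.15, edgeR adjusted p = 0.848). With 1 brain library left out the difference from liver kept its size, 0.80 without replicate 1 and 0.73 without replicate 2, but the edgeR adjusted p rose to 0.0739 and 0.0899. The difference from subcutaneous tumours was then 0.88 and 0.81, with an edgeR adjusted p of 0.085 and 0.0898. The call against liver was also lost without liver replicate 2 (0.75, edgeR adjusted p = 0.0552). Cdc20 alone took 9.34% and 9.31% of the set's UMIs in the brain libraries, against 5.40% to 6.60% elsewhere.

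Fbxo5 (ENSMUSG00000019773, chr10:5799160-5805600, minus strand), the inhibitor that holds the complex back before mitosis, was lowest in liver. The liver libraries gave 47.9, 46.8 and 63.6 CPM, the brain libraries 76.0 and 88.0, and the subcutaneous libraries 98.1, 92.4 and 104. No library of 1 site overlapped those of another. Liver was lower than subcutaneous tumours by a log2 difference of -0.78 (SE 0.12, edgeR adjusted p = 0.0175) and brain was higher than liver by 0.53 (SE 0.13, edgeR adjusted p = 0.0229). Brain minus subcutaneous was -0.26 (SE 0.13, edgeR adjusted p = 0.227), so that the order of brain and subcutaneous levels was not resolved. The liver call against subcutaneous tumours was lost without liver replicate 1, liver replicate 2, subcutaneous replicate 2 or subcutaneous replicate 3 (edgeR adjusted p = 0.077, 0.129, 0.0569 and 0.0586), with differences of -0.72, -0.70, -0.82 and -0.75. The call against brain was lost without either brain library (0.65 and 0.42, edgeR adjusted p = 0.0608 and 0.173) and without liver replicate 1 or 2 (0.47 and 0.43, edgeR adjusted p = 0.0738 and 0.101), and with cells thinned to 3000 UMIs (0.36, edgeR adjusted p = 0.0533).

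Ube2c, the ubiquitin-conjugating enzyme that works with the same complex, did not pass the test between sites. It stood at 323 and 313 CPM in brain, 305, 345 and 307 in liver, and 325, 231 and 305 in subcutaneous tumours. The libraries of all 3 sites overlapped, and brain minus liver was -0.12 (SE 0.14, edgeR adjusted p = 0.578), with 0.15 for brain and 0.27 for liver minus subcutaneous (edgeR adjusted p = 0.509 and 0.297). Of the 15 core subunits of the complex, 2 were called between brain and liver (13.3%, against 21.8% of all genes), Anapc10 higher (0.62, edgeR adjusted p = 0.00467) and Cdc27 lower (-0.41, edgeR adjusted p = 0.0373) in brain. Anapc10 was also called against subcutaneous tumours (0.43, edgeR adjusted p = 0.0262), and none of the 15 was called by edgeR between liver and subcutaneous tumours, where 1 had an unadjusted p under 0.05.

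Cyclin A2 (Ccna2), cyclins B1 and B2 (Ccnb1, Ccnb2), their kinase Cdk1 and the kinase's small partner Cks2 were not called between sites. This holds for all tumour cells, fitted with a mean per site. Cks2 stood at 281 and 271 CPM in brain, 207, 229 and 247 in liver, and 295, 198 and 251 in subcutaneous tumours. Both brain libraries lay above the 3 liver libraries and within the subcutaneous range. Cdk1 had the largest difference of the 5, a log2 value of 0.33 (SE 0.17, edgeR adjusted p = 0.182) for brain minus liver and 0.27 (SE 0.17, edgeR adjusted p = 0.3) for brain minus subcutaneous. Cdk1 passed against liver without liver replicate 3 (0.50, edgeR adjusted p = 0.0463) and with a replicate block (0.46, edgeR adjusted p = 0.0408). The other 4 lay between -0.14 and 0.21 in the 2 brain comparisons.

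The mitotic kinases and checkpoint genes lay close to 0 in both brain comparisons. They were Plk1 and Aurka, which drive entry into mitosis and build the spindle poles, and Bub1, Bub1b and Ttk, which sense unattached kinetochores. The 5 genes ranged from -0.18 to 0.08 on the log2 scale for brain minus liver and from -0.09 to 0.01 for brain minus subcutaneous. Aurka stood at 55.4 and 64.1 CPM in brain, 42.3, 52.6 and 61.9 in liver, and 54.6, 54.3 and 68.9 in subcutaneous tumours. Those 3 ranges overlapped.

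The chromosomal passenger complex, which corrects faulty attachments and guides cytokinesis, is formed by the kinase Aurkb with Incenp, survivin (Birc5) and borealin (Cdca8). None of the 4 passed the test, and all 4 had values above 0 for brain minus liver, from 0.12 to 0.24. Cdca8 stood at 176 and 196 CPM in brain, 125, 143 and 171 in liver, and 169.9, 146 and 185 in subcutaneous tumours. The brain libraries lay above the liver libraries and overlapped the subcutaneous ones.

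Among the centromere and kinetochore genes, Cenpa encodes the histone that marks the centromere, Cenpe and Cenpf act at the outer kinetochore, and Nuf2 and Ndc80 form part of the complex that grips microtubules. Cenpa stood at 235 and 219 CPM in brain, 239.5, 222 and 228 in liver, and 218, 176 and 210.2 in subcutaneous tumours. Every liver library lay above every subcutaneous library, with a log2 difference of 0.30 (SE 0.09, edgeR adjusted p = 0.132). This was the single member whose liver and subcutaneous libraries did not overlap with liver higher, as 5.99% of all genes did, and Fbxo5 was the single one with liver lower, as 21.7% did. Cenpa passed the threshold with DESeq2 (0.31, adjusted p = 0.0276) and without subcutaneous replicate 1 (0.36, edgeR adjusted p = 0.0461). The group's other 4 genes lay between 0.03 and 0.33 in both brain comparisons and none was called.

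The kinesin motors Kif11, Kif20a, Kif20b, Kif23 and Kif2c, which slide spindle microtubules, take them apart or build the midbody, did not pass the test. All 5 had values above 0 for brain minus liver, from 0.03 (Kif20b) to 0.38 (Kif20a, SE 0.19, edgeR adjusted p = 0.172). Without liver replicate 3, Kif20a passed (0.59, edgeR adjusted p = 0.0303). Kif23 stood at 51.4 and 55.3 CPM in brain, 36.9, 45.8 and 52.2 in liver, and 49.6, 35.5 and 47.1 in subcutaneous tumours. The brain range began just inside the top of the liver range.

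Of the spindle assembly and cytokinesis genes, Tpx2 switches Aurka on at the spindle, Hmmr, Nusap1 and Ckap2 bind spindle microtubules, and Anln and Sapcd2 act at the cell cortex. They split in sign, with log2 values from -0.35 to 0.24 for brain minus liver. The lowest values were those of Sapcd2 (-0.35, SE 0.16, edgeR adjusted p = 0.151) and Tpx2 (-0.34, SE 0.15, edgeR adjusted p = 0.129). With cells thinned to 3000 UMIs, Tpx2 passed (-0.48, edgeR adjusted p = 0.0313). Tpx2 stood at 96.6 and 92.7 CPM in brain, 92.5, 112 and 129 in liver, and 97.1, 103 and 128 in subcutaneous tumours. Both brain libraries lay below all 3 subcutaneous libraries and within the liver range, while Nusap1 and Ckap2 were at 0.24 and 0.20 for brain minus liver.

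Top2a (ENSMUSG00000020914, chr11:98992943-99024189, minus strand), the topoisomerase that untangles sister chromosomes, stood at 189.5 and 213 CPM in brain, 133, 130.1 and 133 in liver, and 177, 117 and 152 in subcutaneous tumours. Both brain libraries lay above all others. The log2 difference was 0.49 (SE 0.15, edgeR adjusted p = 0.0448) from liver and 0.43 (SE 0.15, edgeR adjusted p = 0.0819) from subcutaneous tumours. The call against liver lay close to the threshold and was lost in 10 of 19 alternative analyses, with edgeR or DESeq2 adjusted p from 0.00539 to 0.207 and differences of 0.40 to 0.59. Without subcutaneous replicate 1, Top2a (0.58, edgeR adjusted p = 0.00482) and Birc5 (0.39, edgeR adjusted p = 0.0251) passed against subcutaneous tumours. Mki67, which coats mitotic chromosomes, and Cdca3, which promotes entry into mitosis, were not called, with 0.19 and -0.00 for brain minus liver.

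Genes outside the set gave a background for these counts. Of 52 other mitosis genes, 6 were called between brain and liver (11.5%, against 21.8% of all genes), 5 of them higher in brain. Those 5 were Ska3 (0.73), Pbk (0.69), Dlgap5 (0.64), Ncapd2 (0.55) and Hjurp (0.49), while Knstrn was lower (-0.39). Against subcutaneous tumours 2 were called (3.85%, against 15.1%), Dlgap5 (0.72) and Ncapd2 (0.52), both higher in brain. Between liver and subcutaneous tumours edgeR and DESeq2 each called 0 of the 52, where 4 had an unadjusted p under 0.05 in edgeR. The list's median was 0.20, 0.12 and -0.03 in the 3 comparisons. Brain replicate 1's host markers moved with brain in each of these comparisons, and their part in the calls was not tested.

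Of 18 regulators of mitotic transcription, 3 were called between brain and liver (16.7%, against 21.8% of all genes). Nfyc, a subunit of the CCAAT-binding factor NF-Y, was 3.25-fold higher in brain, with 261 and 304 CPM against 74.6, 79.6 and 86.5 in liver and 132, 101 and 107 under the skin. Rbl2 (p130), a member of the DREAM complex, was higher (0.89, edgeR adjusted p = 0.0189) and E2f5 was lower (-0.49, edgeR adjusted p = 0.023). Rbl2 levels were low, at 8.07 and 7.39 CPM in brain, 4.23, 3.58 and 3.74 in liver, and 6.43, 4.06 and 4.28 in subcutaneous tumours. Subcutaneous replicate 1, its highest library outside brain, also held the most macrophage or microglia markers outside brain (47.4 CPM). The part of host RNA in the Rbl2 level was not tested. Nfyc and E2f5 were called in the same directions against subcutaneous tumours (1.32 and -0.53), and edgeR called none of the 18 between liver and subcutaneous tumours, where 3 had an unadjusted p under 0.05. Of 20 S phase genes, 3 were called between brain and liver, 15% against 21.8% of all genes. Mcm5 (1.13), Clspn (0.88) and Pcna (0.55) were higher in brain than in liver, Mcm5 (1.01) and Clspn (0.68) were higher than in subcutaneous tumours, and Cdc6 was lower in liver than in subcutaneous tumours (-0.79, edgeR adjusted p = 0.0417).

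Cdc20 was then set beside its neighbours on chromosome 4, a comparison chosen after its values had been seen. The last 53 bases of Cdc20 lie across the last bases of Elovl1 (chr4:118428093-118432953, plus strand), a fatty acid elongase that runs towards it. The labels do not say whether counting used the strand, and without it reads from the shared end of the pair cannot be told apart. Elovl1 stood at 53.6 and 66.8 CPM in brain, 14.3, 16.7 and 20.9 in liver, and 32.6, 29.0 and 28.2 in subcutaneous tumours. Its log2 differences were 1.69 for brain minus liver, 1.01 for brain minus subcutaneous and -0.68 for liver minus subcutaneous (edgeR adjusted p = 0.000617, 0.00578 and 0.0435). Across cell states, Elovl1 was at a mean of 33.3 CPM in tumour cells without a UMI of the other mitosis genes. It was at 29.96 in cells with 8 or more. Cdc20 was at 25.3 and 567 in the same cells. These levels do not show how reads of the shared end were counted, and their part in the Cdc20 difference between sites was not tested.

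Many genes on both sides of Cdc20 on chromosome 4 were higher in brain tumours, most of all towards higher coordinates. Counting every gene that reaches into the 1 Mb on either side of Cdc20, 28 others were tested, of which 21 were called higher and 2 lower in brain than in liver (median log2 difference 0.76), where 21.8% of all tested genes were called in either direction. Against subcutaneous tumours 18 were called higher and 1 lower (median 0.58), and between liver and subcutaneous tumours 2 were called. By gene midpoints, in the 1 Mb below the start of Cdc20, 9 of 15 genes were called higher and 2 lower in brain than in liver (median 0.43), and in the 1 Mb above it 11 of 11 were called higher (median 1.55). The stretch from the start of Cdc20 to 4 Mb towards higher coordinates was picked after seeing these values. In it 26 of 31 genes were called higher in brain than in liver and none lower, with a median log2 difference of 1.55. No gene was tested from 3 to 4 Mb, so that all 31 lay within the first 3 Mb. Against subcutaneous tumours 23 of the 31 were called higher and none lower (median 1.29). From 1 to 2 Mb below Cdc20, 3 of 24 genes were called, and the median was 0.11. From 4 to 5 Mb above it, 5 of 11 were called, all lower in brain, with a median of -0.52. Mycl, whose UMIs helped choose the tumour cells, is in that count and median, so that neither is free of the selection.

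Over those 31 genes, the median level relative to each gene's own mean was 0.96 and 1.11 (log2) in brain. Liver gave -0.36, -0.43 and -0.52, and the flank tumours gave 0.15, -0.33 and -0.33. Both brain libraries lay above all others, and subcutaneous replicate 1 lay above the remaining 5. Nfyc lies in this stretch, 2.36 Mb above Cdc20. Kif2c, 1.27 Mb below Cdc20, and Cdca8, 6.49 Mb above it, were not called. Mycl, 4.56 Mb above it, was used to choose the tumour cells, and nothing is read from its difference. The part of these neighbours in the Cdc20 call was not tested.

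**Figure D3:**
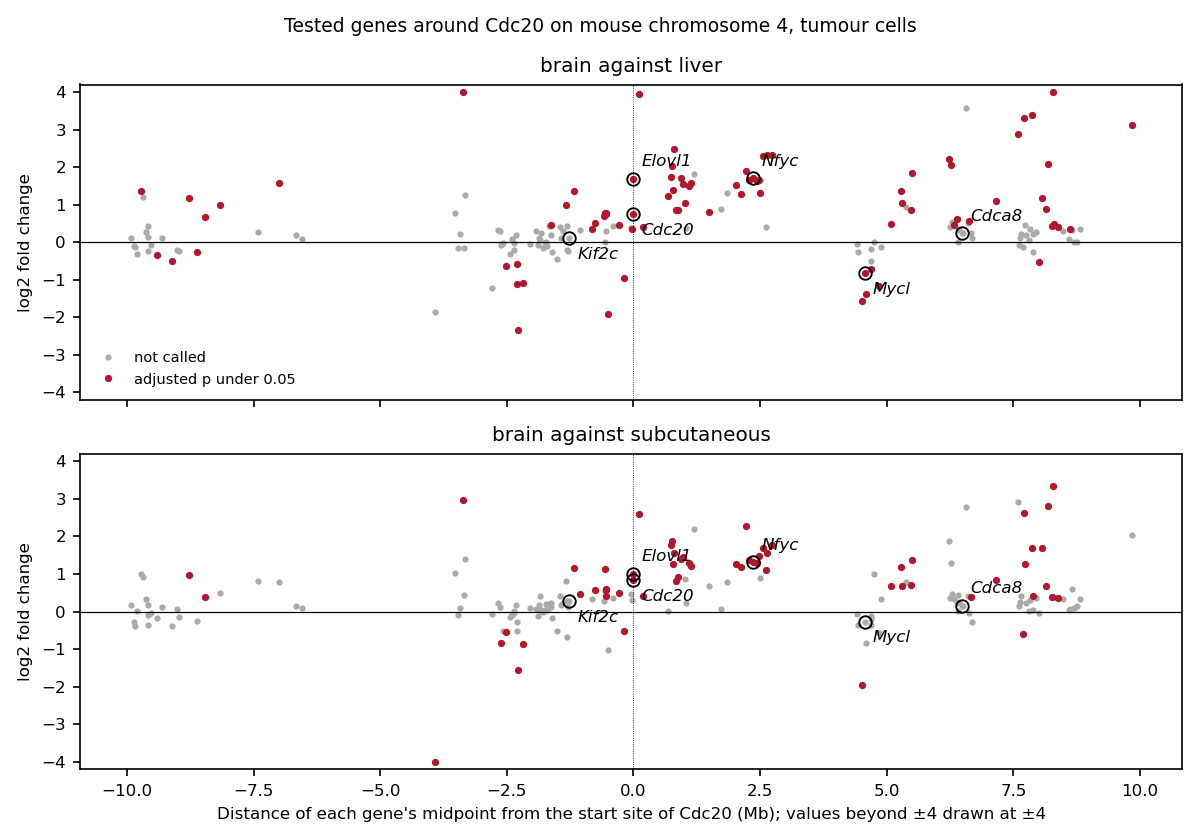
Log2 fold change of every tested gene within 10 Mb of Cdc20 on mouse chromosome 4, by distance from its start in Mb, for brain against liver (top) and brain against subcutaneous (bottom). Red points have an edgeR adjusted p under 0.05; those between 0 and 4 Mb lie above 0 in both panels, whereas Kif2c (0.11) and Cdca8 (0.24) in the top panel were not called and Mycl was used to choose the cells.

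For comparison, 27 of the 36 genes had at least 10 tested neighbours within 1 Mb. By the median of those neighbours Cdc20 ranked 2 of 27 in both brain comparisons, after Kif20b, whose 10 neighbours had a median of 2.60 for brain minus liver and 1.94 for brain minus subcutaneous while Kif20b itself was at 0.03 and -0.16. The lowest median was -0.39 for brain minus liver. Around Top2a 8 of 31 neighbours were called between brain and liver, 5 higher and 3 lower, with a median of 0.01. Around Fbxo5 only 3 genes were tested, of which 1 was called, lower in brain.

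To look at the level in dividing cells beside their number, tumour cells were sorted by state with genes outside the set. These sorting genes, the other mitosis genes, had a median log2 difference of 0.20 for brain minus liver, with 5 called higher and 1 lower. A fixed cut over them can shift by site which cells count as mitotic. Level and number are therefore not fully told apart, and the part of this shift was not tested. Each cell was thinned to 3000 UMIs, and a cell with at least 4 UMIs over the 52 other mitosis genes was named mitotic. The name is a label for this rule, includes late G2 and is not a measured phase. By this rule 46.2% and 46.4% of tumour cells were mitotic in brain. The shares were 44.2%, 44.5% and 46.3% for liver and 43.0%, 39.9% and 43.3% for the flank. Brain and liver overlapped, and the subcutaneous libraries lay below all others. The exact permutation p over the 560 assignments of the 8 libraries was 0.0179 for the 3 sites together. Pairwise differences were 1.31 points for brain minus liver (exact permutation p = 0.3), 4.25 for brain minus subcutaneous and 2.94 for liver minus subcutaneous (exact permutation p = 0.1 for each, which is the smallest these groups allow; two-sided). The difference depended on the rule: the 3-site exact p was 0.0571 with at least 2 UMIs, 0.961 with at least 8 UMIs, 0.332 after thinning to 2000 UMIs and 0.175 without thinning. The rule gives a range and not a type, since 8.81% to 10.9% of the cells of a library held exactly 3 of these UMIs and 5.23% to 7.52% exactly 4. Without thinning, 74.7% to 80.4% of the tumour cells of a library met the cut. In thinned cells a Plk1 UMI was seen in 14.3% to 22.0% of those named mitotic and in 0.657% to 1.59% of the others. Mitotic and outside mitosis therefore stand for either side of the cut. Doublets were not removed with a caller, and without the 5% of cells with most UMIs the 3-site exact p was 0.0321.

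Within mitotic cells the same 3 genes were called. Cdc20 stood at 579 and 587 CPM in the mitotic cells of brain, against 260.5, 340.0 and 399 in liver and 383, 317 and 389.9 in subcutaneous tumours. The log2 difference was 0.71 (SE 0.15) from both, with an edgeR adjusted p of 0.0127 from liver and 0.0191 from subcutaneous tumours. Fbxo5 was at 129 and 146 in brain, 79.4, 81.8 and 108 in liver, and 177, 182 and 189 in subcutaneous tumours. Its libraries again did not overlap between sites, with log2 differences of 0.52 for brain minus liver and -0.90 for liver minus subcutaneous (edgeR adjusted p = 0.0209 and 0.00556). Top2a was at 338 and 373 in brain, 243, 245 and 247 in liver, and 342, 251 and 299.7 under the skin. Brain minus liver was 0.44 (edgeR adjusted p = 0.0387) and brain overlapped the subcutaneous range.

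The other 33 genes did not pass the test within mitotic cells, where 17.4% of all genes were called between brain and liver (10.6% higher in brain), 11.1% between brain and subcutaneous (7.13% higher in brain) and 2.49% between liver and subcutaneous tumours (1.60% lower in liver). These calls were lost in both brain comparisons when either brain library was left out, and the Fbxo5 call against subcutaneous tumours was lost without liver replicate 2. Only 1 of the 3 calls against liver was made without liver replicate 2. Against subcutaneous tumours the call was lost without subcutaneous replicate 2, and 4 members were called without subcutaneous replicate 1. In cells with at least 8 of those UMIs, Cdc20 averaged 841 ± 18.2 (SD, n = 2) in brain. The liver mean was 459 ± 91.8 (SD, n = 3) and the flank mean 492 ± 43.4 (SD, n = 3).

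**Figure D4:**
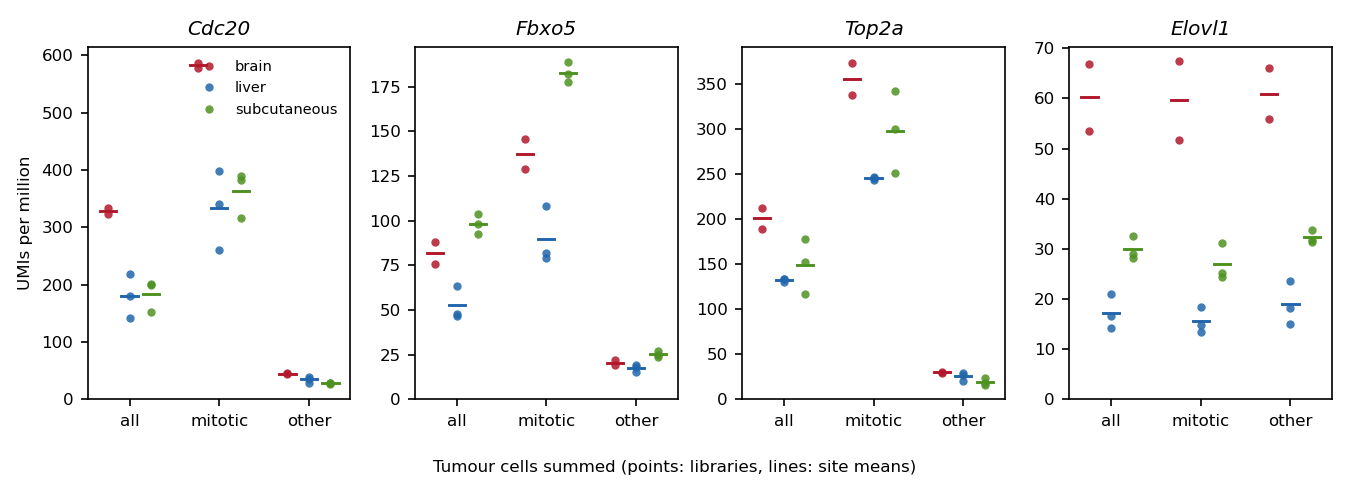
Level of Cdc20, Fbxo5, Top2a and the overlapping gene Elovl1 in all, mitotic and other tumour cells, as CPM, with a point per library and a line at each site mean. Brain points lie above all others for Cdc20 in all cells (323 and 334) and in mitotic cells (579 and 587), and Elovl1 is at close levels in mitotic and other cells (median ratio 0.851).

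Every member was higher in mitotic than in other tumour cells of each library, which is a description since the genes used for the split are known to move with the members. The ratio of the 2 levels had a median over libraries of 4.13 (Ckap2) to 24.5 (Hmmr), with a median over the 36 genes of 12.9. Kif2c (24.4), Plk1 (24.2) and Kif11 (20.7) were also near the top, while Cdk1 (5.98), Fbxo5 (6.66), Sapcd2 (6.68), Cenpa (6.98) and Cks2 (7.62) followed Ckap2 at the bottom.

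Outside mitosis, the members split by whether the cell carried S phase transcripts. Cells with at least 8 UMIs over the 20 S phase genes were set against cells with fewer. Higher in the S-phase cells of all 8 libraries were Cdk1 (median ratio 1.85), Fbxo5 (1.76), Kif20b (1.73), Top2a (1.62), Ckap2 (1.26), Sapcd2 (1.23) and Incenp (1.12). Lower in all 8 were Cenpa (0.308), Ccnb2 (0.365), Cdca3 (0.454), Ube2c (0.512), Cenpe (0.539), Cenpf (0.574), Birc5 (0.622), Hmmr (0.624) and Kif2c (0.635). Cdk1 and Fbxo5 are known targets of E2F, which switches genes on at the start of S phase, whereas cyclin B2 and the centromeric histone are known to be made late in the cycle. The other 20 genes, Cdc20 among them (0.948, from 0.761 to 1.12), were higher in some libraries and lower in others.

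Outside mitosis the site comparison gave other calls than within it, in an analysis added after the first results were seen. In all tumour cells 26 of the 36 members had values above 0 for brain minus liver, and none was called lower. The cells compared here are those left under the cut over the other mitosis genes, whose median was 0.20 for brain minus liver. The part of that cut in the calls below was not tested. Between brain and liver 11 of 36 members were called (30.6%), all lower in brain, where 20.7% of all genes were called and 8.20% were lower. They were Ccnb2 (-0.999), Cenpa (-0.99), Ube2c (-0.98), Bub1 (-0.95), Cdca3 (-0.82), Hmmr (-0.78), Sapcd2 (-0.76), Tpx2 (-0.68), Aurkb (-0.66), Ccna2 (-0.56) and Cdca8 (-0.50), with edgeR adjusted p from 0.00275 to 0.05. Cenpa, for example, was at 41.6 and 37.7 CPM in brain against 86.1, 70.9 and 62.5 in liver, with flank values of 48.6, 55.1 and 50.5. Brain lay below all others. Without brain replicate 1, brain replicate 2 or liver replicate 2, 6, 3 and 5 members were called in this comparison.

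The shares of cell states outside mitosis were as follows. S-high cells outside mitosis made up 38.2% ± 0.675 (SD, n = 2) of tumour cells in brain and 29.0% ± 6.14 (SD, n = 3) in liver, and S-low cells 15.5% ± 0.874 against 26.0% ± 7.23. The subcutaneous tumours held 32.8% ± 3.83 S-high and 25.2% ± 3.44 S-low cells (SD, n = 3). Of the 20 S phase genes behind this cut, 19 had values above 0 for brain minus liver (median 0.20), and Mcm5, Clspn and Pcna were called higher. A higher level of these genes and more cells in S phase cannot be told apart in these shares. Of the 11 genes called lower in brain, 5 were among the 9 that were lower in S-high cells of all 8 libraries (Ccnb2, Cdca3, Cenpa, Hmmr and Ube2c), which is 45.5% of the first list and 55.6% of the second, and 1 (Sapcd2) was among the 7 that were higher in them. Of all 36 members, 11 were on the first list and 9 on the second. Both lists come from the same cells, so that their overlap is a description. The part of the mixture of S-high and S-low cells in the calls was not tested. Against subcutaneous tumours 3 members were called, where 15.4% of all genes were: Cdk1 (0.69) and Cdc20 (0.68) were higher in brain and Ccnb2 (-0.68) was lower. Between liver and subcutaneous tumours 4 were called, where 2.76% of all genes were and 0.847% were higher in liver: Cenpf (0.88), Kif23 (0.75), Cenpa (0.62) and Cdca8 (0.46), all higher in liver. In that comparison 34 of 36 members had values above 0 and 23 an unadjusted p under 0.05 in edgeR, with a median of 0.45, while the median of all genes was -0.00. The calls against subcutaneous tumours rested on few libraries: those of brain were lost without either brain library and numbered 7 without subcutaneous replicate 1 and 1 without subcutaneous replicate 3. Those of liver numbered 2 without either brain library, 1 without liver replicate 1 and 11 without subcutaneous replicate 1, and were lost without liver replicate 2, subcutaneous replicate 2 or subcutaneous replicate 3.

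**Figure D5:**
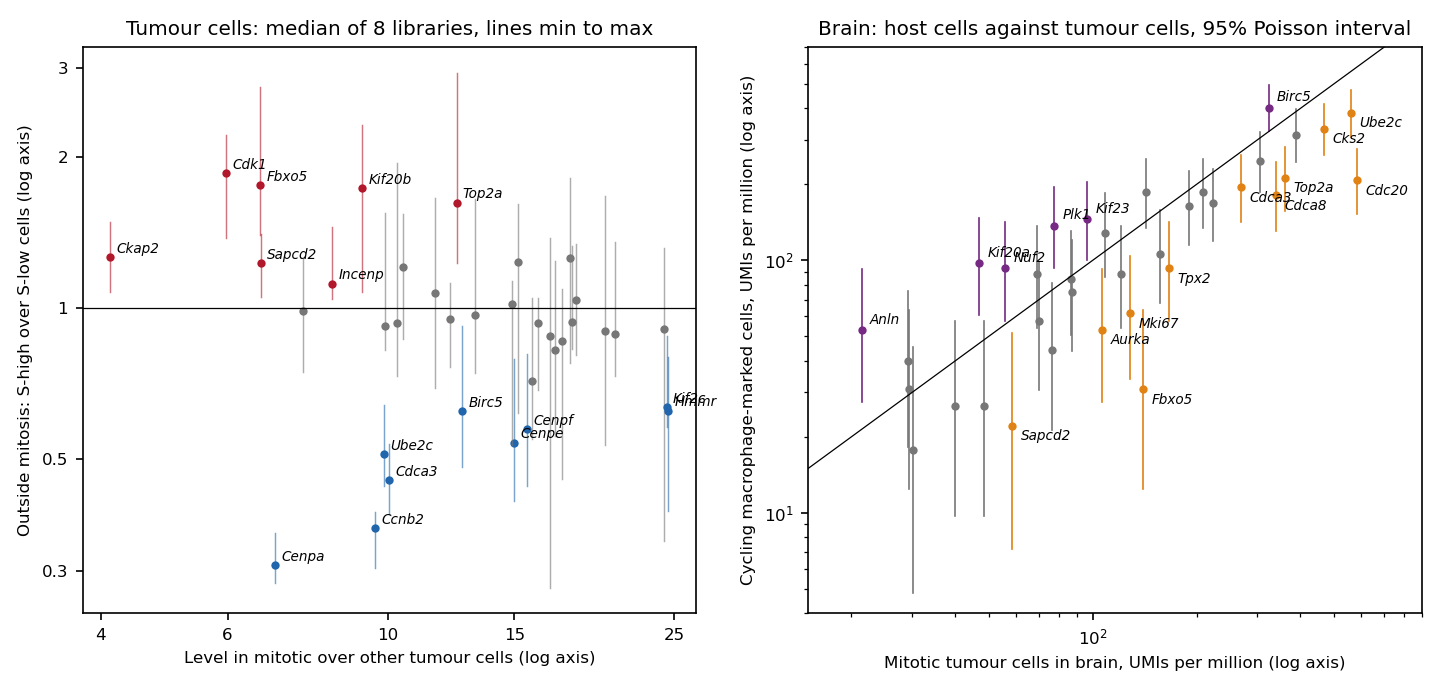
Left, each gene's level in mitotic over other tumour cells (median of 8 libraries) against its level in S-high over S-low cells outside mitosis (point, median; line, lowest to highest library); red genes lie above 1 and blue genes below 1 in all 8 libraries. Right, level in 38 cycling macrophage-marked cells of the brain libraries with exact 95% Poisson intervals against the level in mitotic brain tumour cells, both as CPM on log axes; purple intervals lie above the line of equality (for example Anln) and orange ones below it (for example Fbxo5 and Cdc20).

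Host cells that divide were found mainly in brain. Kept cells under the tumour cut were given a host class when they held at least 3 markers of that class and more than of any other. This gave 1288 macrophage- or microglia-marked cells, of which 1030 had at least 2000 UMIs, and 40 of those had at least 3 UMIs of the other mitosis genes after thinning to 2000 and were called cycling. They were 30 of 678 cells in brain replicate 1 (4.42%, exact 95% interval 3.00% to 6.26%), 8 of 208 in brain replicate 2 (3.85%, 1.67% to 7.44%), 1 of 28 in liver replicate 2 and 1 of 7 in liver replicate 3. None of 101 cells in subcutaneous replicate 1 was cycling, which allows a share of up to 2.97% (3 counts) and has an exact 95% interval up to 3.59% that overlaps those of both brain libraries. The 2 brain libraries did not differ beyond these intervals, which cover counting error only. Of other classes, 4 of 44 glia-marked, 2 of 43 endothelial-marked and 0 of 72 fibroblast- or pericyte-marked cells were cycling. The sort was for healthy cells, and which cells it kept can set these shares.

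In the 38 cycling macrophage-marked cells of brain, all 36 genes were above their level in non-cycling cells of the same class, with exact 95% Poisson intervals that did not overlap. The ratio had a median of 27.3 and ran from 7.83 (Cks2) to 447 (Nuf2, 21 UMIs against 1). Because these cells were chosen by related genes, the ratios are a description. The set together was at 4783 CPM in cycling and 239 in non-cycling cells, and at 6217 in mitotic and 539.7 in other tumour cells of the same libraries. An eGFP UMI was seen in 37.5% of the 40 cycling and 19.2% of the 990 non-cycling cells, at a median of 4318 and 5104 UMIs per cell, and 5 of the 40 held at least 5 tumour markers against 17 of the 990. Their part in the levels was not tested. With the tumour cut for host cells at 0.1%, the ratio of the summed set was 20.8, against 20.01. Single genes moved more at that cut: Fbxo5 was at 17.6 CPM (3 UMIs, interval 3.63 to 51.4), Sapcd2 at 5.87 (1 UMI, 0.149 to 32.7) and Anln at 41.1 (7 UMIs, 16.5 to 84.6).

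Against mitotic tumour cells of brain, 19 genes were within the Poisson interval of the cycling macrophage-marked cells, 11 were lower and 6 were higher in those host cells. The cuts differed, at 3 UMIs after thinning to 2000 in host cells and 4 after thinning to 3000 in tumour cells. The whole set was lower in the host cells (4783 against 6217 CPM). The share of all genes outside such intervals was not counted, so these counts are not read as particular to the members. The widest gaps below were those of Fbxo5, at 31.0 CPM (7 UMIs, interval 12.5 to 63.8) against 139.9 in tumour cells, Cdc20, at 208 (47 UMIs, 153 to 277) against 584, and Sapcd2, at 22.1 (5 UMIs, 7.18 to 51.6) against 58.6. Mki67, Aurka, Cdca8, Tpx2, Top2a, Ube2c, Cks2 and Cdca3 were also lower. Those higher in host cells were Anln, at 53.1 (12 UMIs, 27.4 to 92.7) against 21.4, which lies within the interval at the 0.1% cut, with Kif20a, Plk1, Nuf2, Kif23 and Birc5. The host value rests mostly on brain replicate 1: Cdc20 was at 191 (135 to 264) there and at 307 (147 to 565) in brain replicate 2, and no Fbxo5 UMI was found in the 8 cells of brain replicate 2, whose 32532 UMIs allow up to 92.2 CPM (3 counts) and have an exact 95% interval up to 113 CPM. These are counts of few cells from 2 libraries and carry no test.

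Anln behaved apart from the set in glia-marked cells. It is known to be made by myelinating oligodendrocytes as well as by dividing cells. In the 40 non-cycling glia-marked cells of brain it had 48 UMIs in 20 cells, or 245 CPM (180.4 to 324), where non-cycling macrophage-marked cells had 3 UMIs in 3 of 848 cells, or 0.623 (0.129 to 1.82). Median depth was 4436 and 3611 UMIs in the glia-marked and 4943 and 4832.5 in the macrophage-marked cells of the 2 brain libraries. In the same glia-marked cells Cdc20 had 15 UMIs in 9 cells (76.5 CPM, 42.8 to 126), while Cdk1 had 2 UMIs and Top2a 2 UMIs, and Mki67, Tpx2 and Nusap1 had none. A count of 0 in these cells allows up to 15.3 CPM (3 counts) and has an exact 95% interval up to 18.8 CPM.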

How the data were processed

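Single-cell libraries of 8 allografts were read as gene, barcode and count matrices. The deposited values are counts of UMIs per gene and cell, made by the authors with Cell Ranger and STAR on mm10, per the submitters' processing notes. The matrices follow Cell Ranger matrix format 3.0.0, per the file headers. Whether counting used the strand is not given in the sources used here. Gene positions came from GENCODE M21 (99.5% of 22056 listed genes matched) and promoters from RefSeq.

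Cells needed at least 500 genes and no more than 10% mitochondrial UMIs. UMIs of tumour cells were summed per library and tested with edgeR 4.0.16 (quasi-likelihood, robust, TMM scaling, filterByExpr, a mean per site over 8 libraries, 5 residual degrees of freedom) in R 4.3.3, with Benjamini-Hochberg adjustment over all tested genes. DESeq2 1.42.0 was an alternative. Shares of cells were compared with exact permutation tests. The procedure was tested on simulated data. Thinning, exact binomial and Poisson intervals (95%) used Python 3.11.15, numpy 2.4.6 and scipy 1.17.1. Intervals and the limits for a count of 0 (3 counts) cover counting error only. No doublet caller was run. The 5% of cells with most UMIs were left out as an alternative.

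The members and lists were chosen with earlier results of these data known. All 36 members are accounted for. Values per library are given for members called in any comparison and for the member with the highest mean level in each role group. Up to 5 called genes per comparison are named from each other list. Elovl1, the neighbours of Cdc20 and the tumour cells outside mitosis were examined after values had been seen. Neutrophil-marked cells, planned as the background for free RNA, numbered 10, of which 1 had 2000 UMIs, and non-cycling macrophage-marked cells took their place. Alternatives changed the scaling, the filters on genes and cells, the tumour cut, the cell numbers and depth, the replicate block and the libraries left out.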

Additional observations from a re-analysis of the deposited data

Results flagged for a closer look

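In tumour cells outside mitosis, 3 members differed in direction between sites when cells with at least 8 UMIs of the S phase list were set against cells with fewer. Ccnb1, cyclin B1, was lower in the S-phase cells of every brain and every liver library and higher in those of every subcutaneous library. Its mean log2 ratio was -0.63 for brain, -0.41 for liver and 0.14 for the flank, so that the sites differed by -0.78 for brain minus subcutaneous and -0.55 for liver minus subcutaneous. Mki67, the coat protein of mitotic chromosomes, had mean log2 ratios of -0.18 for brain, -0.21 for liver and 0.34 for the flank, which gave differences of -0.52 for brain and -0.55 for liver minus subcutaneous. Cks2, the small partner of Cdk1, was at -0.24 in brain and 0.22 in subcutaneous tumours, a difference of -0.47. All libraries of the sites named lay on opposite sides of 0. These differences were picked by their values from all 36 members, with 2 or 3 libraries a site. Ccnb1 was low in these cells, at 9.33 to 15.5 CPM over the libraries outside mitosis. None of these 5 differences was tested.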

How the results depend on the processing

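Over 19 alternative analyses, Cdc20 kept its direction in each and lost its call in 3 against liver (log2 difference 0.61 to 0.90) and in 2 against subcutaneous tumours (0.74 to 0.93). Fbxo5 lost its call in 5 against brain and in 4 between liver and subcutaneous tumours, and Top2a in 10, with 0 reversals among them. Of 103 uncalled member results, 6 became called in at least 1 of these analyses (12 of 1957 refits), and 0 reversed. Without 1 library at a time, the members called ranged from 0 to 4 of 36 (brain against liver), 0 to 3 (brain against subcutaneous) and 0 to 2 (liver against subcutaneous). Within mitotic cells they ranged from 0 to 4, 0 to 4 and 0 to 1, and within other tumour cells from 3 to 12, 0 to 7 and 0 to 11. The other mitosis genes ranged from 0 to 11 and 0 to 8 for the brain comparisons. The difference in mitotic share ranged from 0.930 to 1.94 points for brain minus liver, from 3.16 to 4.86 for brain minus subcutaneous and from 1.85 to 3.55 for liver minus subcutaneous.

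DESeq2 called 2 members in brain against subcutaneous and 2 in liver against subcutaneous tumours, and 5 and 10 in other tumour cells. A tumour cut of 0.4% gave 2 members in brain against subcutaneous tumours and 3 other mitosis genes in brain against liver. Thinning to 3000 UMIs gave 2 members in liver against subcutaneous tumours, and 3 and 4 other mitosis genes in the 2 brain comparisons. Equal cell numbers gave 3 and 1 of those genes. A fit of only the sites compared gave 1 of them in brain against subcutaneous tumours and 2 members in liver against subcutaneous within other tumour cells. The brain minus liver difference in mitotic share reversed with a cut of at least 8 UMIs (-0.0285 points) and without thinning (-2.56 points). The ratio of the members in cycling over non-cycling macrophage-marked cells, 20.01, was 10.6 with at least 2 UMIs and 26.1 with at least 5. The cause of these changes was not tested.

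Libraries of the same replicate number did not pair: their deviations correlated by 0.07 and 0.04 between brain and liver, 0.05 and 0.03 between brain and subcutaneous, and 0.23, -0.12 and 0.27 between liver and subcutaneous, and not every library correlated best with its own number. With a replicate block the members called were 4, 1 and 1 in the 3 comparisons, 2, 1 and 1 within mitotic cells and 9, 4 and 4 within other tumour cells, and the other mitosis genes 9, 3 and 0. Under the block Cdk1 (0.46, edgeR adjusted p = 0.0408) and Kif20a (0.53, edgeR adjusted p = 0.0484) passed between brain and liver, and Top2a did not (0.50, edgeR adjusted p = 0.0724).

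With 2 brain libraries, a member that did not pass the test is not shown to be unchanged. The simulated recovery of 29% for 1.5-fold changes between brain and liver came from a smaller spread and fewer called genes than these data. It does not set what this design can call. Site and injection route cannot be told apart in the comparisons with liver, a single cell line was used, and the cycling host cells are few and mostly from brain replicate 1.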
